A study of Mus musculus with 10 samples.

Results

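The genes described here are 10 components of the mouse MHC class I antigen presentation pathway: the heavy chains H2-K1 and H2-D1, their light chain B2m, the peptide transporter subunits Tap1 and Tap2, the loading factor Tapbp, the immunoproteasome subunits Psmb8, Psmb9 and Psmb10, and the trimming peptidase Erap1. They were chosen by symbol, and all 10 were found among the 12806 named genes of the count table. Class I molecules display short peptides from inside the cell to CD8 T cells. Proteasomes cut proteins into peptides, and the inducible subunits PSMB8, PSMB9 and PSMB10 alter where they cut. TAP1 and TAP2 move the peptides into the endoplasmic reticulum, where ERAP1 trims them and tapasin (TAPBP) helps load them onto a heavy chain paired with beta-2-microglobulin (B2M). Interferons and NF-kappaB are known to raise transcription of many of these genes, and loss of class I is a known route by which tumour cells escape T cells while becoming visible to natural killer cells.

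RNA was sequenced from 10 cell lines of mouse esophageal squamous carcinoma, which arises from the flat cells that line the gullet. Their genotype was Trp53R172H/- on a mixed strain background. All of them therefore carry the R172H mutant allele of p53 without a normal copy, and the labels name no line with normal p53. Each line held 1 short hairpin RNA, either a control (shCtrl) or a Trp53-directed one (shTrp53) that lowers the mutant transcript. The primary lines were 1 shCtrl and 1 shTrp53 line, and the metastatic lines were 5 shCtrl (numbers 376, 377, 378, 382 and 383) and 3 shTrp53 lines (384, 386 and 387) isolated from metastases in the lung at week 8 by sorting YFP-positive cells. The sources used here do not give the age, sex or class I haplotype of the mice, nor whether lines within a group derive from different mice, so p-values measure only the spread among these lines.

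Libraries held 11057049 to 18431216 counts. Levels are given as CPM, read counts relative to the TMM-scaled library size. Trp53, the hairpin's target, stood at 73.7 CPM in the shCtrl primary line and 94.5 to 131 CPM in the shCtrl metastatic lines, against 6.54 CPM in the shTrp53 primary line and 5.16 to 7.36 CPM in the shTrp53 metastatic lines. All 7 squamous epithelial markers were read, with a summed level of 4917 to 11143 CPM. Of the markers of other cells, 1 of 7 leukocyte genes (Cd68), 2 of 5 endothelial, 3 of 6 fibroblast and 0 of 6 lung epithelial genes were in the table. The endothelial sum reached at most 1.70 CPM and the fibroblast sum at most 10.9 CPM.

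The DNA just before the transcription start is shown for some of the 10 genes, and Psmb10, Erap1 and Tapbp are not shown. RefSeq (GRCm38.p6) gave a start for 9 of the 10 genes, and Tap2 was not among them. H2-K1 had another start, with the window chr17:34000348-34000597, which holds the same motif and is not printed. H2-K1 (chr17:34000334-34000583, minus strand) and H2-D1 (chr17:35262844-35263093, plus strand) are shown because both hold the kappaB motif of class I promoters, B2m (chr2:122147437-122147686, plus strand) because it holds the core of an interferon-stimulated response element, and Psmb8 (chr17:34197945-34198194, plus strand) because it holds a GAS element. Tap1 and Psmb9 lie head to head and share the stretch chr17:34187331-34187555, printed on the plus strand. Each sequence runs 5′ to 3′ on the strand named, ends at the base before the start except for the shared stretch, and has the matched motif in capitals.
H2-K1: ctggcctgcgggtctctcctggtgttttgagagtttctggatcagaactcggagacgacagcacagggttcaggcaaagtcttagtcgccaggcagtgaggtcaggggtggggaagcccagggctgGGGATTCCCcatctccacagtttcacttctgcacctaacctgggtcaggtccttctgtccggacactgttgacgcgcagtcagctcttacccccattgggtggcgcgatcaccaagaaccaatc
H2-D1: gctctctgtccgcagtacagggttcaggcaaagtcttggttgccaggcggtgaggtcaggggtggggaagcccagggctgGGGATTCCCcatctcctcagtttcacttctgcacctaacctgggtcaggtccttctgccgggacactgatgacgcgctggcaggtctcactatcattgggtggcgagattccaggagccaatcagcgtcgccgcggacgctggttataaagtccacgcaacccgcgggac
B2m: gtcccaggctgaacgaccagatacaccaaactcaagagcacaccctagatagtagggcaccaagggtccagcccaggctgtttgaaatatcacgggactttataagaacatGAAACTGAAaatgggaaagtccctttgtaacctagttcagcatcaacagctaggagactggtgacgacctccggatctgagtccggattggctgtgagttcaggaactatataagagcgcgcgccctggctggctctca
Psmb8: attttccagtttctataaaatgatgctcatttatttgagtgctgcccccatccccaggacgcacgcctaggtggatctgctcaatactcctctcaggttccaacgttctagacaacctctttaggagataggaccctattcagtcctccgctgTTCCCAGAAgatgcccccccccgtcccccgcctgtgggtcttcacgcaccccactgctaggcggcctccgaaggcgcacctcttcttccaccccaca
Tap1 and Psmb9 shared: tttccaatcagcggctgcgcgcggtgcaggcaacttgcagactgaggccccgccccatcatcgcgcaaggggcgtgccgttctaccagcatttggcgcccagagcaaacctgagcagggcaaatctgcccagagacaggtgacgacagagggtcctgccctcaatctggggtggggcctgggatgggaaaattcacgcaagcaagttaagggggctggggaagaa
The motifs searched on both strands were GGGANTCCC for class I kappaB, GAAANNGAA for the response element core and TTCNNNGAA for GAS. The kappaB and GAS motifs read the same on either strand, and no matches of different motifs overlapped. The kappaB motif occurs in 209 of 32851 promoter windows of 250 bases (0.636%), the response element core in 7.13% and GAS in 7.02%. Of the 9 genes with an entry, H2-K1 and H2-D1 held the kappaB motif, B2m and Erap1 the response element core and Psmb8 the GAS motif. The response element core was searched only in the form given above, and other forms of it were not searched. The lack of a match, as in H2-K1 and H2-D1, therefore does not show that the element is absent. A match describes letters only, and was not tested as a binding site.

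Relative to transcript length, H2-K1, H2-D1 and B2m stood above the other members. In the shCtrl metastatic lines, levels per kilobase of reference transcript averaged 214 CPM per kb for B2m, 193 for H2-K1, 93.0 for H2-D1, 37.1 for Tapbp and 22.1 for Psmb10. Erap1 followed at 5.06 CPM per kb, Tap2 at 4.17, Psmb8 at 2.44, Tap1 at 2.02 and Psmb9 at 1.19. Within each of the 5 lines H2-K1 exceeded H2-D1, H2-D1 exceeded Tapbp, Tapbp exceeded Psmb10, Psmb10 exceeded Erap1 and Tap1 exceeded Psmb9. The order of B2m and H2-K1, and of Tap2 and Psmb8, held in 4 of 5 lines, and that of Erap1 and Tap2, and of Psmb8 and Tap1, in 3 of 5, so those neighbours were not separated. In the shCtrl primary line B2m was at 149 CPM per kb, H2-K1 at 59.1, H2-D1 at 48.1 and Psmb8 at 0.0795. The rarest genes rested on few reads: Psmb8 had 1 to 67 counts per line and Psmb9 3 to 34.

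**Figure D1:**
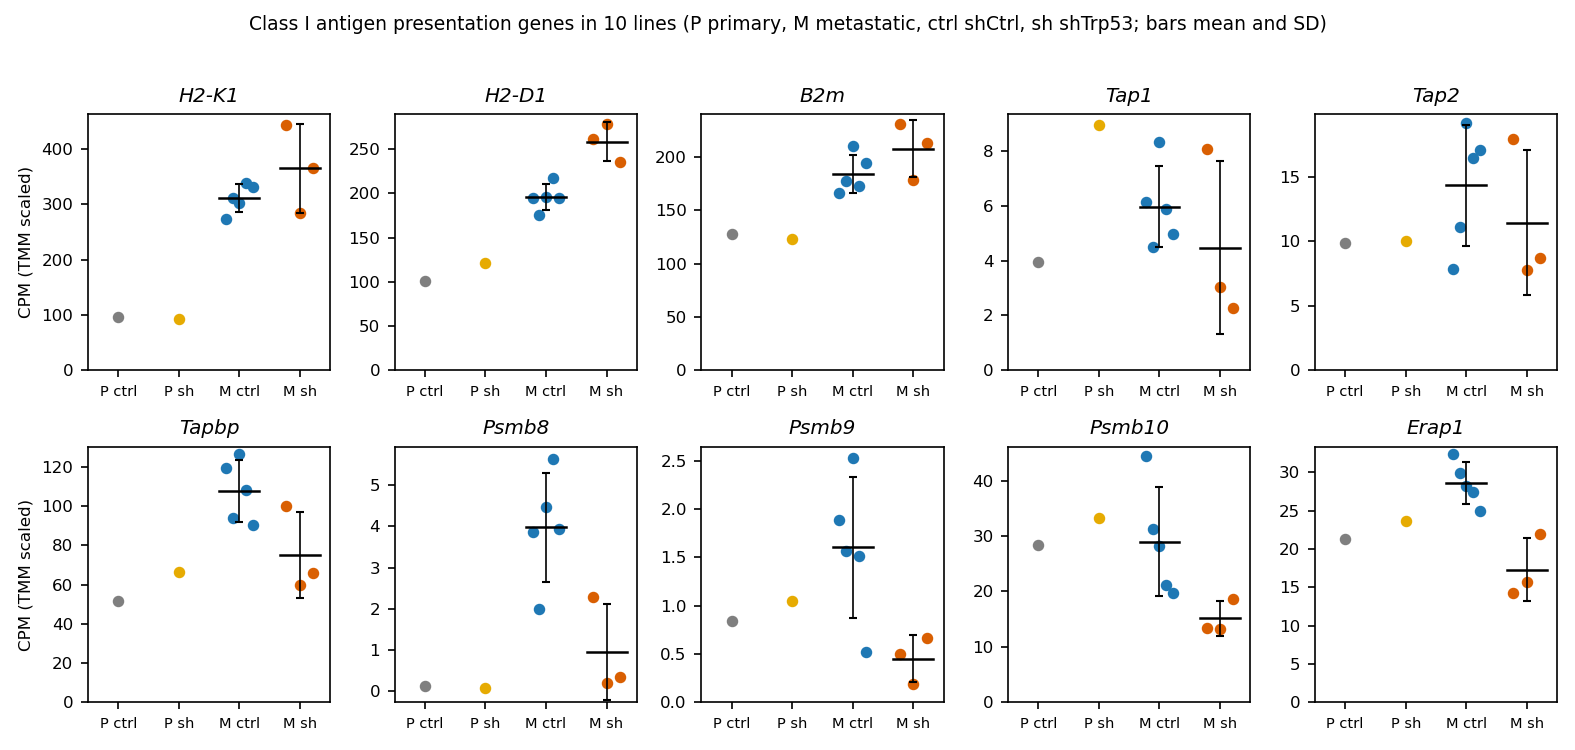
Level of each gene in CPM (vertical axis, linear, own scale per gene) in the primary (P) and metastatic (M) lines with the control (ctrl) or Trp53 (sh) hairpin; each point is 1 line, and bars give the mean and SD of the metastatic groups. H2-K1, H2-D1 and B2m are higher in all 8 metastatic lines than in both primary lines, Psmb8 is near 0 in the primary lines and in lines 386 and 387, and Psmb10 and Erap1 are lower in all 3 shTrp53 than in all 5 shCtrl metastatic lines.

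Metastatic lines were compared with primary lines in all 10 lines with the hairpin as a covariate. Of the 10 genes, 4 rose in metastatic lines, 0 fell and 6 did not pass an adjusted p under 0.05 in edgeR's quasi-likelihood test; over all 12603 genes tested, 7.14% rose and 7.65% fell. DESeq2 and limma voom also called 0 lower, as did edgeR at an unadjusted p under 0.05. The 4 were H2-K1, H2-D1, B2m and Psmb8, and the CPM of each was higher in every metastatic line than in both primary lines, as for 10.6% of all genes (11.3% the reverse, 21.9% in all). For Psmb8 this order rests on 3 and 6 counts in lines 386 and 387 against 2 and 1, whose counting intervals overlap. The median log2 difference was 0.49 over the 10 genes and -0.03 over all genes. There was only 1 primary line per hairpin, and in bulk RNA a change in the share of cells that express a gene and in RNA per cell cannot be told apart.

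H2-K1, a classical heavy chain that presents to CD8 T cells, was at 95.6 CPM in the shCtrl and 92.3 CPM in the shTrp53 primary line. It was at 274, 311, 303, 339 and 331 CPM in shCtrl metastatic lines 376, 377, 378, 382 and 383, and at 444, 284 and 366 CPM in shTrp53 metastatic lines 384, 386 and 387. The metastatic hairpin groups overlapped, and both lay well above the primary lines. Between sites H2-K1 rose by 1.83 on the log2 scale (adjusted p = 0.000448, SE 0.19, edgeR), with a mean of 332 CPM over 8 metastatic lines against 94.0 CPM over the primary pair, 3.53-fold. Between hairpins the log2 difference in the metastatic lines was 0.23 (SE 0.15, adjusted p = 0.280, edgeR).

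H2-D1, the other classical heavy chain in the table, was at 101 CPM in the shCtrl and 121 CPM in the shTrp53 primary line. It stood at 195, 175, 196, 218 and 194 CPM in shCtrl lines 376, 377, 378, 382 and 383 and at 262, 278 and 235 CPM in shTrp53 lines 384, 386 and 387. Every shTrp53 metastatic line was above every shCtrl metastatic line, which in turn were above both primary lines. H2-D1 rose by 1.02 on the log2 scale between sites (adjusted p = 0.0017, SE 0.13, edgeR). It also rose between hairpins, with 196 ± 14.9 CPM (SD, n = 5) against 258 ± 21.9 CPM (SD, n = 3), a log2 difference of 0.41 (SE 0.11, adjusted p = 0.0288, edgeR). That hairpin call was lost without line 377, 378, 384 or 386, with an adjusted p of up to 0.0963.

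Class I heavy chains resemble one another, so a read can fit several of them. In the reference transcripts, 6.94% of the 50-base windows of H2-K1 occur exactly in H2-D1 and 8.79% in any other gene, while 14.3% of those of H2-D1 occur in another gene. The sources used here do not say how the authors assigned such reads, and reads of these mixed-background mice were counted against 1 reference genome, so the effect of allele differences was not tested. Summed over the 8 classical and related heavy chain genes in the table (H2-K1, H2-D1, H2-K2, H2-Bl, H2-T22, H2-T23, H2-T24 and H2-M3), the level was 248 and 275 CPM in the primary lines, 520 to 610 CPM in the shCtrl and 633 to 787 CPM in the shTrp53 metastatic lines. The sum rose between sites (log2 difference 1.26, SE 0.14, adjusted p = 0.00123, edgeR). Between hairpins its log2 difference of 0.31 missed the threshold (SE 0.12, adjusted p = 0.0812, edgeR), so the H2-D1 call is lost when the heavy chains are summed. H2-K1 and H2-D1 made up 79.4% and 77.7% of the sum in the primary lines and 88.9 to 91.3% in the metastatic lines.

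B2m encodes beta-2-microglobulin, the light chain that every class I molecule needs to reach the surface. Its level was 128 and 123 CPM in the shCtrl and shTrp53 primary lines, 166, 178, 211, 173 and 194 CPM in shCtrl lines 376, 377, 378, 382 and 383, and 231, 179 and 214 CPM in shTrp53 lines 384, 386 and 387. All metastatic lines were above the primary lines, and the hairpin groups overlapped. B2m rose by 0.63 on the log2 scale between sites (adjusted p = 0.0182, SE 0.15, edgeR), 1.54-fold in mean CPM. The hairpin difference was 0.18 (SE 0.13, adjusted p = 0.331, edgeR). Per kilobase, H2-K1 plus H2-D1 came to 72.0% and 80.1% of B2m in the primary lines and to 114 to 156% in the metastatic lines.

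Psmb8 encodes an inducible catalytic subunit that replaces Psmb5 in the immunoproteasome. It had 2 counts (0.129 CPM) in the shCtrl and 1 count (0.0808 CPM) in the shTrp53 primary line. The shCtrl metastatic lines 376, 377, 378, 382 and 383 had 3.85, 2.00, 4.46, 5.64 and 3.93 CPM. Those with shTrp53 split, with 2.29 CPM in line 384 but 0.195 CPM in line 386 and 0.333 CPM in line 387, 3 and 6 counts. Line 384 lay within the shCtrl range, and the other two were below it, at counts too few to set them apart from the primary lines. Pooled counts gave a ratio of 30.8 between shCtrl metastatic and shCtrl primary lines (95% counting interval 8.45 to 256) and of 10.7 between the shTrp53 lines of each site (1.82 to 434), both of which cover counting error only. Line 384 supplied 32 of the 41 counts, and without it the latter ratio was 3.34 (0.463 to 146). Psmb8 rose between sites by 4.40 on the log2 scale (adjusted p = 0.0261, SE 1.13, edgeR). Limma voom did not call it, at an adjusted p of 0.14.

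The remaining genes did not pass between sites. Tapbp had a log2 difference of 0.61 (SE 0.25, adjusted p = 0.109, edgeR) and passed in DESeq2 alone, at an adjusted p of 0.0497. Differences of Tap2, Tap1, Psmb9, Psmb10 and Erap1 were 0.37, -0.28, -0.14, -0.58 and -0.02, with adjusted p from 0.222 to 0.960 (edgeR). With a 1.5-fold threshold, H2-K1 and H2-D1 still passed and B2m and Psmb8 did not. With a single primary line in each, so that the spread comes from the metastatic lines and is assumed for the primary line, the hairpins were also fitted apart. Within the shCtrl lines only H2-K1 passed (adjusted p = 0.019, edgeR), and within the shTrp53 lines H2-K1 and H2-D1 rose and Psmb10 fell. Leaving out any single metastatic line kept all 4 calls. Without the shCtrl primary line, Psmb8 missed the threshold (adjusted p = 0.204, edgeR), and without the shTrp53 primary line so did Psmb8 (adjusted p = 0.161) and B2m (adjusted p = 0.237), while H2-K1 and H2-D1 passed in both.

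Other values moved with the site. Cd68, the only leukocyte marker in the table, was at 75.0 and 85.7 CPM in the primary lines, 96.2 to 133 CPM in the shCtrl and 128 to 143 CPM in the shTrp53 metastatic lines. Cd74, the class II invariant chain of antigen-presenting cells, had 0 counts in both primary lines, which allows up to 0.194 and 0.242 CPM (3 counts), against 0.560 to 6.15 CPM in the shCtrl and 0.130 to 1.78 CPM in the shTrp53 metastatic lines. Ptprc, Cd3e, Lyz2, Csf1r, Cd79a and Itgam were not among the genes analysed. Of 3 fibroblast genes 1 rose between sites, and their sum was 2.01 and 1.78 CPM in the primary lines, 3.3 to 10.9 CPM in the shCtrl and 1.5 to 6.24 CPM in the shTrp53 metastatic lines. The part of other cells in the difference between sites was not tested.

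The hairpin was compared in the 8 metastatic lines. Of the 10 genes, 4 fell with shTrp53 (Psmb8, Psmb9, Psmb10 and Erap1), 1 rose (H2-D1) and 5 did not pass. All 3 immunoproteasome subunits and the peptidase were thus called lower, and no gene of the class I molecule itself was. Psmb8 and Psmb9 overlapped between groups, and Psmb5 and Psmb6, the subunits they replace, were called lower too. Over all 12120 genes tested, 21.7% passed, 10.9% upward and 10.8% downward. Groups did not overlap for H2-D1, Psmb10 and Erap1, as for 29.4% of all genes (14.6% higher and 14.8% lower). The median log2 difference was -0.47 over the 10 genes and -0.01 over all genes. The summed squamous markers moved with the hairpin too, at 7214 to 10805 CPM in the shCtrl and 4917 to 7179 CPM in the shTrp53 metastatic lines, with 2 of 7 lower and 1 higher, and their part in the differences was not tested.

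**Figure D2:**
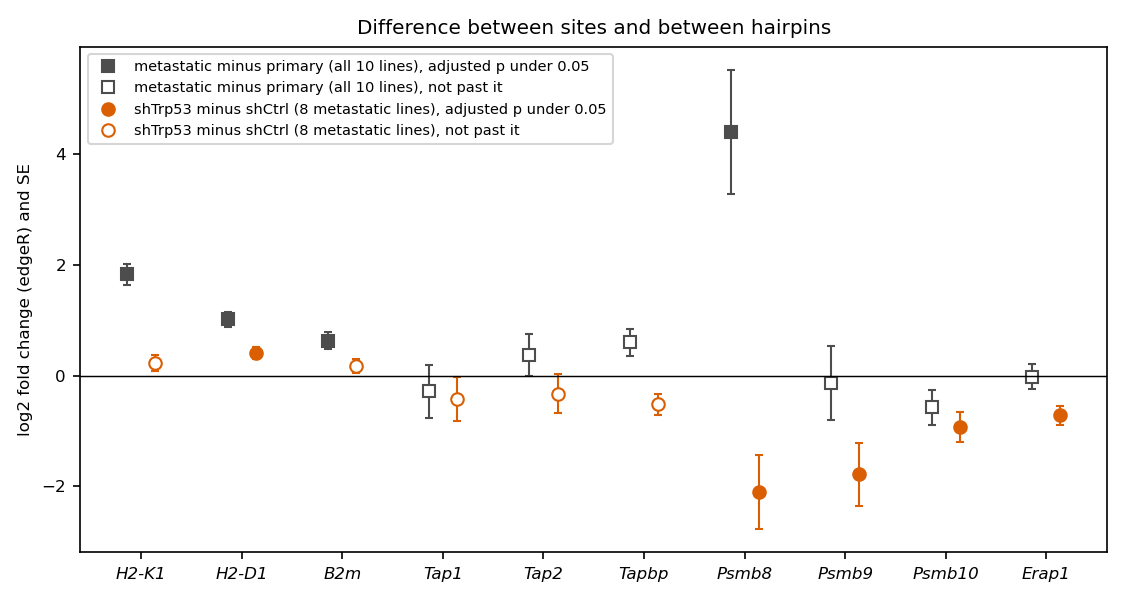
Log2 fold change with its SE (edgeR, vertical axis) for each of the 10 genes, between metastatic and primary lines (squares) and between shTrp53 and shCtrl metastatic lines (circles); filled symbols have an adjusted p under 0.05. The heavy chains, B2m and Psmb8 are above 0 between sites, and Psmb8, Psmb9, Psmb10 and Erap1 are below 0 between hairpins.

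Psmb8 fell by 2.11 on the log2 scale with shTrp53 (adjusted p = 0.0470, SE 0.67, edgeR), with 3.98 ± 1.32 CPM (SD, n = 5) against 0.941 ± 1.17 CPM (SD, n = 3). The fall was larger without line 384, at 3.85 on the log2 scale with an adjusted p of 0.00559. It no longer passed when any of the other lines was left out, with an adjusted p of up to 0.138 without line 387.

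Psmb9 encodes the inducible subunit that replaces Psmb6, and it had the lowest mean of the 10 per kilobase in the shCtrl metastatic lines. It had 0.842 and 1.05 CPM in the shCtrl and shTrp53 primary lines, and 1.89, 1.56, 2.53, 1.52 and 0.519 CPM in shCtrl lines 376, 377, 378, 382 and 383. The shTrp53 lines 384, 386 and 387 had 0.502, 0.195 and 0.666 CPM, from 7, 3 and 12 counts. Line 383 fell inside the shTrp53 range, and the primary lines lay between the metastatic groups' means. Psmb9 fell by 1.78 on the log2 scale (adjusted p = 0.0458, SE 0.57, edgeR), a call that was kept only without line 383 when single lines were left out and that reached an adjusted p of 0.148 without line 386. It shares its start region, and 12.5% of its 50-base windows, with Tap1, and the sources used here give no strand setting for the counting, so reads of this overlap cannot be told apart.

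Psmb10, the inducible partner of Psmb7, was at 28.4 and 33.2 CPM in the shCtrl and shTrp53 primary lines. Its levels were 44.5, 31.3, 28.2, 21.2 and 19.8 CPM in shCtrl lines 376, 377, 378, 382 and 383 and 13.4, 13.3 and 18.7 CPM in shTrp53 lines 384, 386 and 387. Every shTrp53 line was below every shCtrl line, though line 387 came close to line 383, and the shCtrl lines spread more than 2-fold among themselves. Psmb10 fell by 0.93 on the log2 scale (adjusted p = 0.0325, SE 0.27, edgeR). Without line 377, 378, 384 or 386 it missed the threshold, with an adjusted p of up to 0.116.

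Erap1, the aminopeptidase that trims peptides in the endoplasmic reticulum to the length class I holds, was at 21.2 and 23.7 CPM in the shCtrl and shTrp53 primary lines. It was at 32.4, 29.95, 28.2, 27.5 and 24.97 CPM in shCtrl lines 376, 377, 378, 382 and 383 and at 14.2, 15.8 and 21.9 CPM in shTrp53 lines 384, 386 and 387. The groups did not overlap, and the primary lines lay near the gap between them. Erap1 fell, with 28.6 ± 2.77 CPM (SD, n = 5) against 17.3 ± 4.09 CPM (SD, n = 3), by 0.72 on the log2 scale (adjusted p = 0.0175, SE 0.18, edgeR). This call held without any single line other than 384 and 386, where the adjusted p was at most 0.0799. In the reference transcripts 14% of its 50-base windows also occur in Cast, a gene that overlaps it.

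Tapbp, tapasin, bridges the transporter and the empty class I molecule. It was at 51.9 and 66.2 CPM in the shCtrl and shTrp53 primary lines, at 119, 93.8, 126, 108 and 90.4 CPM in shCtrl lines 376, 377, 378, 382 and 383, and at 99.96, 59.6 and 65.7 CPM in shTrp53 lines 384, 386 and 387. Lines 386 and 387 were below the shCtrl range and line 384 was inside it. The hairpin difference was -0.52 (SE 0.19, adjusted p = 0.0721, edgeR), and -0.78 without line 384 with an adjusted p of 0.0279. DESeq2 called it at an adjusted p of 0.048. In the reference transcripts 21% of the 50-base windows of Tapbp also occur in other genes, 19% in Gm19412.

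Tap1 and Tap2 form the peptide transporter as a pair. Tap1 was at 3.95 and 8.97 CPM in the shCtrl and shTrp53 primary lines, at 6.16, 4.51, 8.33, 5.89 and 4.96 CPM in shCtrl lines 376, 377, 378, 382 and 383, and at 8.10, 3.06 and 2.28 CPM in shTrp53 lines 384, 386 and 387. Tap2 was at 9.91 and 10.02 CPM in the primary lines, at 7.84, 11.1, 19.2, 16.5 and 17.1 CPM in the same shCtrl lines, and at 17.9, 7.75 and 8.71 CPM in the same shTrp53 lines. In both genes line 384 stood with the higher shCtrl lines and apart from 386 and 387. Hairpin differences were -0.42 for Tap1 (SE 0.40, adjusted p = 0.466, edgeR) and -0.32 for Tap2 (SE 0.35, adjusted p = 0.524, edgeR). Without line 384 that of Tap1 was -1.16, with an adjusted p of 0.0556. In the reference transcripts 12.6% of the 50-base windows of Tap2 and 6.47% of those of Tap1 also occur in other genes.

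Line numbers moved with the hairpin: the shCtrl lines fall into 376 to 378 and 382 to 383, while all shTrp53 lines are 384 or above. Mean Psmb10 was 34.7 CPM in lines 376 to 378 and 20.5 CPM in 382 and 383, and mean Psmb9 was 1.99 and 1.02 CPM. Psmb8 went the other way, at 3.44 and 4.78 CPM, and Erap1 was at 30.2 and 26.2 CPM. Erap1 fell at each step of line number, from 32.4 CPM in line 376 to 24.97 CPM in line 383. Psmb10 did so too, from 44.5 to 19.8 CPM. With a term for lines 376 to 378, 0 of the 10 genes passed, with hairpin differences of 0.33 for H2-D1, -2.37 for Psmb8, -1.11 for Psmb9, -0.43 for Psmb10 and -0.59 for Erap1 and adjusted p of 0.125, 0.0916, 0.311, 0.272 and 0.0923 (edgeR). Against 382 and 383 alone, 0 of 9 passed, and Psmb9 fell under the low-count filter. At an unadjusted p under 0.05, H2-D1, Psmb8 and Erap1 passed in both fits. The labels do not say what the numbers stand for, and the hairpin and the line number cannot be told apart beyond this.

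**Figure D3:**
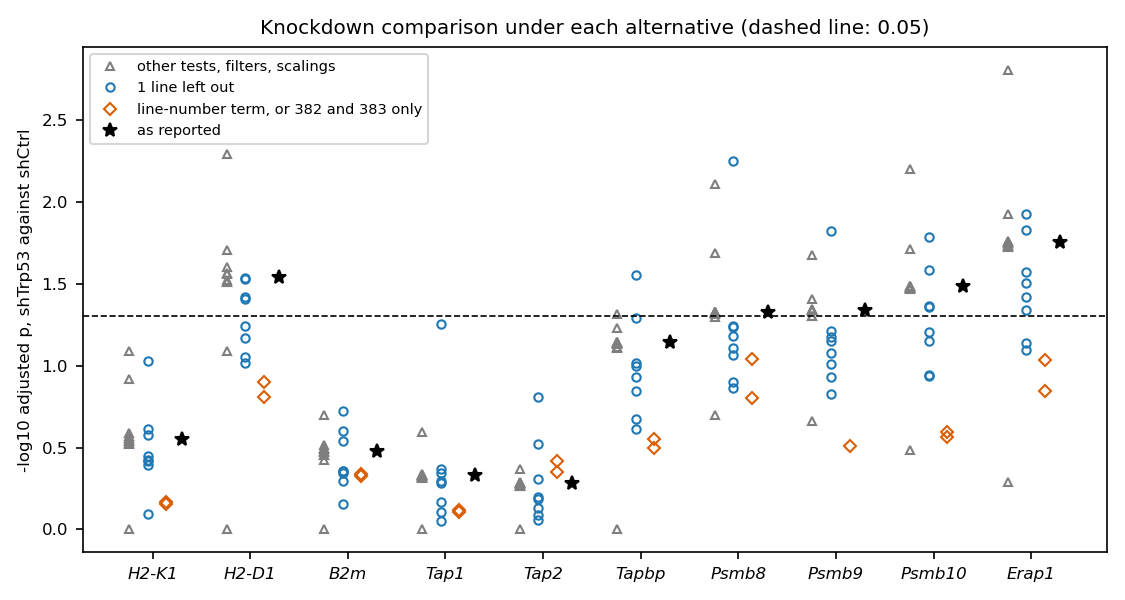
Minus log10 of the adjusted p (vertical axis) of shTrp53 against shCtrl metastatic lines for each gene: stars as reported, triangles other tests, filters and scalings, circles with 1 line left out, diamonds with a term for line numbers 376 to 378 or with only shCtrl lines 382 and 383; the dashed line is 0.05. Psmb8 and Psmb9 sit close to the line, and no diamond is above it for any gene.

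Whether immunoproteasome subunits moved apart from the constitutive subunits they replace was read from levels per kilobase. Psmb8 was 0.0834% and 0.0585% of Psmb5 in the shCtrl and shTrp53 primary lines, 1.38 to 4.45% in the 5 shCtrl lines from metastases, with 2.17, 0.210 and 0.413% for shTrp53 lines 384, 386 and 387. Psmb10 was 23.3% and 29.3% of Psmb7 in the primary lines, 14.8 to 34.3% in the shCtrl metastatic and 11.1 to 14.9% in the shTrp53 metastatic lines, where line 387 reached the lowest shCtrl line. Psmb9 stayed under 0.2% of Psmb6 in every line. Constitutive subunits differed too: Psmb5 fell by 0.59 on the log2 scale with shTrp53 (adjusted p = 0.0260, edgeR) and Psmb6 by 0.60 (adjusted p = 0.0262, edgeR), while Psmb7 had a difference of -0.05 (adjusted p = 0.767, edgeR).

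**Figure D4:**
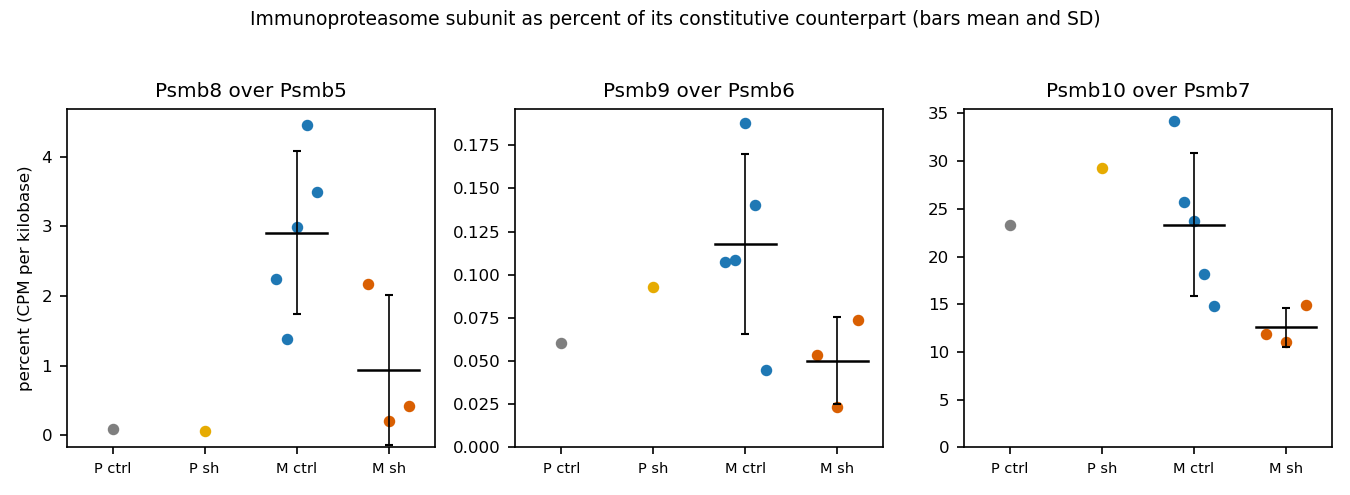
Immunoproteasome subunit as a percent of the constitutive subunit it replaces, from CPM per kilobase (vertical axes, own scale per panel), in primary (P) and metastatic (M) lines with the control (ctrl) or Trp53 (sh) hairpin; points are lines, bars mean and SD. Psmb8 over Psmb5 is under 0.1% in both primary lines and 1.38 to 4.45% in the shCtrl metastatic lines.

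In the primary pair, 1 line per hairpin, log2 ratios of shTrp53 over shCtrl had no replicate check and were not tested. H2-D1 had a ratio of 0.26 (95% counting interval 0.16 to 0.37), Tapbp 0.35 (0.21 to 0.49), Tap1 1.15 (0.72 to 1.66) and Psmb10 0.23 (0.03 to 0.42). These 4 intervals of 10 lay off 0, as did 53.5% of those of all genes. H2-K1 was at -0.05 (-0.16 to 0.06), B2m at -0.06 (-0.15 to 0.04), both of which turned positive without TMM scaling, at 0.10 and 0.09, and Erap1 at 0.16 (-0.08 to 0.39). Psmb10 and Erap1, lower with shTrp53 in metastatic lines, were thus not lower in the primary shTrp53 line. The test of that difference, the interaction of hairpin and site, called 0 of the 10 genes and 0% of all genes in edgeR. At an unadjusted p under 0.05 edgeR called 1 of the 10, Erap1 (log2 difference -0.88, SE 0.38, adjusted p = 0.536), and DESeq2 and limma voom called 0 after adjustment and 1 and 2 before.

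Of 9 other heavy chain and class Ib genes tested, 2 rose and 1 fell with shTrp53, beside 10.9% and 10.8% of all genes. H2-T24 rose by 1.10 on the log2 scale, from 10.3 to 22.1 CPM (adjusted p = 0.016, edgeR), and H2-K2 by 1.32, from 1.42 to 3.58 CPM (adjusted p = 0.0266, edgeR). Cd1d1, which presents lipids to NKT cells, fell by 2.08, from 1.85 to 0.441 CPM (adjusted p = 0.021, edgeR). With the term for lines 376 to 378 these 3 missed the threshold (adjusted p = 0.112, 0.104 and 0.0923, edgeR). Limma voom called H2-T24 and Cd1d1 but not H2-K2, which had 16 to 79 counts per metastatic line. The H2-K2 call was also lost without line 377, 384 or 386, with an adjusted p of up to 0.159 (edgeR). That of H2-T24 was lost without line 386 and that of Cd1d1 without line 386 or 387. Sharing of 50-base windows was not checked for H2-K2. Between sites 1 of 10 fell, beside 7.65% of all genes.

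Among loading chaperones, 1 of 9 fell with shTrp53, Hsp90b1, the endoplasmic reticulum HSP90, by 0.77 on the log2 scale from 1072 to 627 CPM, and 3 of 9 rose between sites. Of 11 cytosolic and other peptidases, 3 fell with shTrp53 (Prep by 0.79, Thop1 by 0.56 and Lap3 by 0.36) and 1 rose, Npepps, by 0.69. Of 9 proteasome counterparts and regulators, 5 fell and 1 rose with shTrp53. Psme1 and Psme2, which form the interferon-inducible PA28 activator, fell from 44.4 to 26.8 CPM and from 84.4 to 55.5 CPM, and Psmf1, an inhibitor of the proteasome, rose from 103 to 155 CPM. Between sites 1 of the 9 rose. Over all genes tested, 10.9% rose and 10.8% fell with shTrp53, and 7.14% rose and 7.65% fell between sites. With the term for lines 376 to 378, Prep and Npepps passed, and Hsp90b1, Thop1, Lap3, Psme1, Psme2, Psmb6 and Psmf1 did not, with adjusted p from 0.0502 (Lap3) to 0.270 (Psme2) in edgeR.

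Of 20 regulators of class I transcription, 3 rose and 3 fell with shTrp53, a little above the 10.9% and 10.8% of all genes. Irf1, an interferon response factor that acts on Psmb8, Psmb9 and Tap1, was at 20.3 and 22.9 CPM in the primary lines, 16.9 to 25.5 CPM in the shCtrl and 12.4, 5.60 and 12.0 CPM in the shTrp53 metastatic lines. It fell by 1.16 on the log2 scale without overlap (adjusted p = 0.0135, edgeR). Nfkb2 and Relb, which together form the NF-kappaB dimer of the alternative pathway, fell from 18.8 to 9.17 CPM and from 28.8 to 14.3 CPM, also without overlap (adjusted p = 0.00365 and 0.00303, edgeR). Irf7 and Irf9, which carry the type I interferon response, rose from 1.42 to 9.48 CPM and from 4.76 to 30.0 CPM. The groups overlapped for Irf7, at 0.630 to 2.08 CPM in the shCtrl metastatic lines. It was at 19.9, 6.83 and 1.66 CPM in lines 384, 386 and 387, and limma voom did not call it (adjusted p = 0.133). With the term for lines 376 to 378, Nfkb2 and Relb passed, and Irf1 (adjusted p = 0.0568), Irf9 (adjusted p = 0.0694) and Irf7 (adjusted p = 0.132) did not.

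Of 19 interferon-induced genes 11 rose with shTrp53, beside 10.9% of all genes. Between sites 1 rose and 1 fell, beside 7.14% and 7.65% of all genes. Usp18, which limits interferon receptor signalling, was at 0.453 and 8.64 CPM in the shCtrl and shTrp53 primary lines, 0.140 to 1.41 CPM among shCtrl metastatic lines, with 64.7, 20.2 and 3.77 CPM for lines 384, 386 and 387. It rose by 5.15 on the log2 scale (adjusted p = 0.00348, edgeR), and Rsad2, an antiviral enzyme, by 5.51. Line 384 was highest in Usp18 and also in H2-K1, B2m and, among the shTrp53 metastatic lines, in Psmb8, Tap1, Tap2 and Tapbp, whereas Psmb10 and Erap1 were as low in it as in 386. Rsad2 and H2-D1 were instead highest in line 386, at 4.69 and 278 CPM against 4.02 and 262 CPM in line 384. Without line 384 Usp18 and Rsad2 still passed and Ifi44, Rtp4 and Irf7 did not. With the term for lines 376 to 378 Rsad2 passed, and Usp18 (adjusted p = 0.0589), Ifi44 (adjusted p = 0.175) and Rtp4 (adjusted p = 0.119) did not.

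**Figure D5:**
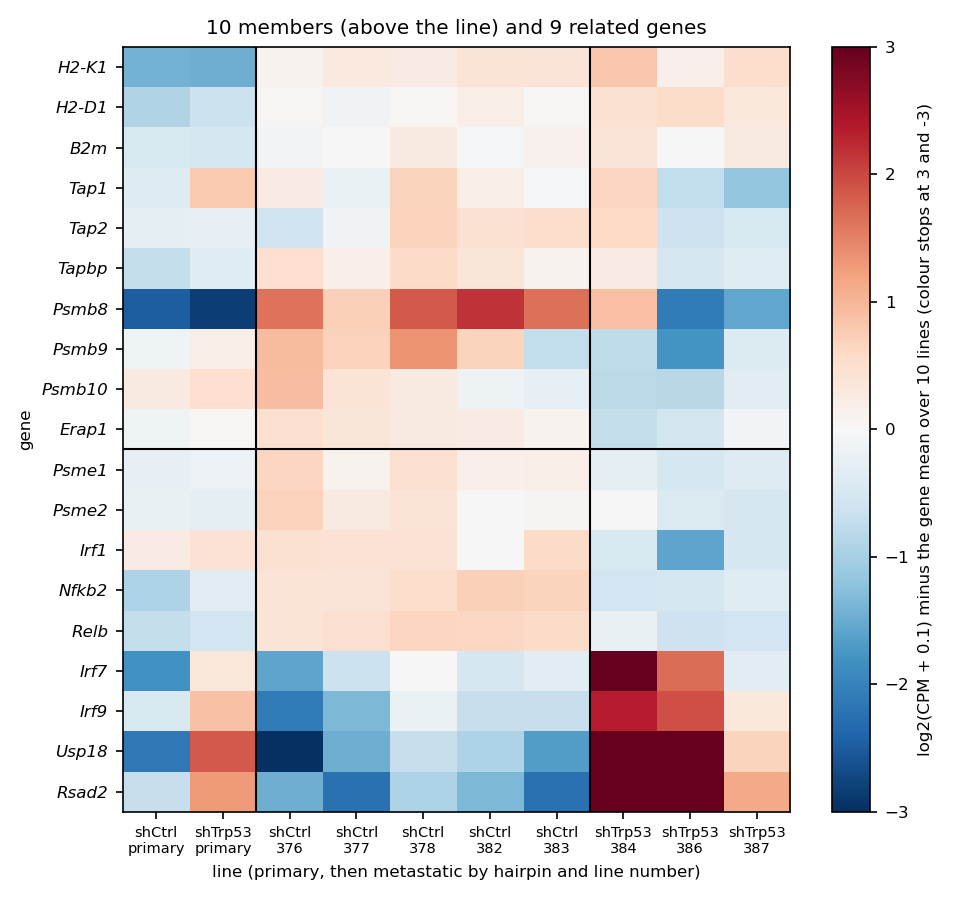
Colour gives log2(CPM + 0.1) minus the gene's mean over the 10 lines (red above, blue below, capped at 3 and -3) for the 10 genes and for related genes under the horizontal line, in each line by site and hairpin. Heavy chains and B2m are blue in both primary lines, and line 384 is red for Usp18, Rsad2, Irf7 and Irf9 while Psmb9, Psmb10 and Erap1 are blue there.

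Of 13 interferon receptor and signalling genes tested, 1 fell with shTrp53, Ifngr1, a chain of the interferon gamma receptor, from 86.4 to 56.4 CPM (log2 -0.61, adjusted p = 0.0123, edgeR), and 1 of 13 fell between sites. Of 10 ligands read by NK and T cells, 2 fell: Cd80, a costimulator of T cells, from 3.88 to 1.16 CPM, and Cd47, a signal that holds back phagocytes, from 194 to 117 CPM; 2 of 10 rose between sites. With the term for lines 376 to 378, Ifngr1, Cd80 and Cd47 passed (adjusted p = 0.0320, 0.0353 and 0.0316, edgeR). Against lines 382 and 383 alone Ifngr1 passed, and Cd80 (adjusted p = 0.0728) and Cd47 (adjusted p = 0.0582) did not. Of 3 class II presentation genes, H2-DMa and Cd74 had hairpin differences of 0.77 and -1.53 (adjusted p = 0.099 and 0.213, edgeR), and 1 rose between sites. The shares over all genes were 10.9% higher and 10.8% lower with shTrp53, and 7.14% higher and 7.65% lower between sites.

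Within the 8 metastatic lines some pairs of members had like profiles, given as correlations of log2 CPM that share libraries and the hairpin groups. No grouping into sets was tested. Psmb10 and Erap1 had r = 0.912 (Spearman's rho 0.976), Psmb9 and Psmb10 0.843 (0.905), Tap1 and Tapbp 0.894 (0.881) and Tapbp and Psmb8 0.931 (0.762). H2-D1 ran against Erap1 (-0.908, rho -0.786) and Psmb10 (-0.840, rho -0.810). Tapbp and Psmb9 had 0.82 (rho 0.786), and H2-K1 and H2-D1 only 0.389 (rho 0.262). H2-K1 and B2m had 0.759 (rho 0.643) in these lines. Over all 10 lines H2-K1 and B2m had r = 0.932 (rho 0.818), which includes the gap between sites.

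Among 9172 genes with a mean of at least 5 CPM, the closest profile over the 10 lines to H2-K1 was that of Eci1 (r = 0.989, rho 0.964), to H2-D1 Dsg2 (0.985, 0.952), to B2m Fam173a (0.956, 0.879), to Tap1 Cchcr1 (0.853, 0.903), to Psmb8 Gpr160 (0.956, 0.855) and to Psmb10 Pstk (0.985, 0.952). Next came Tmem159 for H2-K1, Elovl7 for H2-D1, Sil1 for B2m, Irf2bpl for Tap1, Relb for Psmb8 (r = 0.937, rho 0.915) and Gcat for Psmb10. These are descriptions over 10 lines whose groups differ.

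The 7 members H2-K1, H2-D1, Tap1, Tap2, Tapbp, Psmb8 and Psmb9 lie on chromosome 17, B2m on 2, Psmb10 on 8 and Erap1 on 13. Over chromosome 17 as a whole the median log2 difference between sites lay 0.19 above that of all genes, and 85 of 632 genes tested rose and 12 fell. Over the genes of all chromosomes, 7.14% rose and 7.65% fell between sites, and 10.9% rose and 10.8% fell between hairpins. Of 53 other genes between Tapbp and H2-D1 tested between sites, 7 rose and 1 fell, with a median log2 difference 0.03 above that of all genes, and of 50 tested between hairpins 2 rose and 5 fell, with a median 0.02 above. Genes of chromosomes 8 and 13 had a median hairpin difference 0.31 and 0.32 above that of all genes. On chromosome 8, 188 of 659 genes tested rose with shTrp53 and 25 fell, Psmb10 among them. On chromosome 13, 130 of 469 rose and 20 fell, Erap1 among them. The part of the chromosomes in these differences was not tested.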

How the data were processed

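The authors deposited raw gene counts, whole numbers, for 10 libraries. SMART-Seq v4 cDNA was sheared for ThruPLEX libraries, per the labels. Tools in the submitters' processing notes are DESeq2, Cufflinks 2.2.1 and STAR 2.5, with mm9 as build. Annotation, strand setting and the assignment of shared reads: not given in the sources used here. Of 12824 rows, 18 carried no gene name (0.332 to 0.491% of counts) and were left out.

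Tests used the quasi-likelihood method of edgeR 4.0.16 (R 4.3.3; filterByExpr, TMM, robust glmQLFit) with Benjamini-Hochberg adjustment over all genes. SE is the fold change (log2) divided by the root of F. The hairpin was tested in 8 metastatic lines, the site in 10 lines with the hairpin as covariate, and the interaction over 4 groups. Primary ratios used a prior count of 2. Intervals are exact, at 95%, for counting error only. All 10 members passed the low-count filter in each comparison. Scripts were tested on simulated data.

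Transcript lengths (GENCODE M21), chromosomes, gene order and promoters (RefSeq) are of GRCm38.p6, not the authors' build. 12680 names matched. Groups came from sample titles. The members, 9 pathway lists and the cell markers were chosen with earlier results of these data known. Named genes were all members, Trp53, up to 4 genes called per list by fold (or 2 by CPM) and the 2 most correlated genes for 6 members; Psmb5, Psmb7 and Cd68 were added as counterparts and marker. Alternatives were other scalings, DESeq2 1.42.0, limma 3.58.1 voom, other filters, a 1.5-fold threshold, summed heavy chains, subsets of lines and omission of each metastatic line, and, added after the data were seen, of each primary line in the site comparison.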

Additional observations from a re-analysis of the deposited data

Results flagged for a closer look

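In the 5 shCtrl metastatic lines, 48 genes were checked for a line far from the rest, and chance marks about 1 group in 20. Psmf1, the proteasome inhibitor, stood at 134 CPM in line 383 against 87.9 to 101 CPM in the other shCtrl lines. Cchcr1, the gene whose profile was closest to that of Tap1, stood at 16.5 CPM in line 378 against 9.90 to 11.5 CPM in the others. No member of the class I set had such a line.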

How the results depend on the processing

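The hairpin calls depended on the lines. Against 1 gene higher and 4 lower, the counts were 0 and 0 with a 1.5-fold threshold, with a term for lines 376 to 378 and with only shCtrl lines 382 and 383, and 0 higher with the heavy chains summed. Fitted with all 10 lines, Psmb8 missed the threshold (adjusted p = 0.0502, edgeR), which left 3 lower. Leaving out single lines gave 0 to 1 higher and 0 to 3 lower. Site counts, 4 higher and 0 lower, were 2 higher with a 1.5-fold threshold, 1 higher in shCtrl lines alone, 2 higher and 1 lower in shTrp53 lines alone, and 3 and 2 higher without the shCtrl and the shTrp53 primary line. DESeq2 size factors, upper-quartile scaling, no low-count filter, a minimum mean of 1 CPM and no robust dispersion left both sets of counts as reported, and the causes were not tested.

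Between sites and hairpins signs changed only for differences that had not passed the test. Between sites, Erap1 was 0.012 with DESeq2 size factors, 0.0138 in DESeq2's test, 0.0992 with limma voom, 0.43 in shCtrl lines alone, and -0.0930 to 0.0741 with single lines left out. Psmb9 was 0.30 with limma voom, 0.92 in shCtrl lines alone and -0.26 to 0.12 with single lines left out. In shCtrl lines alone Tap1 was 0.60 and Psmb10 0.0334. Without the shTrp53 primary line Tap1 was 0.60, Psmb9 0.93, Psmb10 0.041 and Erap1 0.44. Between hairpins, Tmem159 was -0.12 with the line term and with 382 and 383 only, and -0.0917 to 0.19 with single lines left out, and Irf2bpl was 0.00912 and 0.0106 under those settings. In the primary pair H2-K1 and B2m turned positive without TMM, where 5 of 10 intervals lay off 0 in place of 4.

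No paired analysis was possible because line numbers are not shared between groups. Leaving out a primary line was added after the data were seen. Depth limits Psmb8 most, at 2 and 1 counts in the primary lines, and then Psmb9, at 3 counts in line 386.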
